A study of Mus musculus with 6 samples.

Results

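The SLC25 family of mitochondrial carriers was followed in RNA sequencing of BV2 cells, a mouse cell line derived from microglia, the macrophages that live in brain tissue. Members were the protein-coding rows of the deposited annotation table whose gene name is Slc25a followed by a number, which gave 44 carriers among 25032 genes with at least 1 read. A row named Slc25a5-ps, a pseudogene with 8 reads in all, was left out by its biotype. The family's substrate lists also held Slc25a21, Slc25a27, Slc25a48 and Slc25a52, which matched no row by name. Of the 44 carriers, 39 passed a filter on low counts (edgeR's filterByExpr, at its defaults of 10 reads and 15 in total) and were tested. The other 5 were hardly read: Slc25a35 had 26 reads over all libraries, Slc25a2 and Slc25a41 had 3 each, Slc25a54 had 2 and Slc25a31 had 1.

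The study asked what changes when microglia overexpress TDP-43 with a mutated nuclear localisation signal, and its title places it in microglial necroptosis. The control group overexpressed GFP (3 libraries) and the other group overexpressed the construct labelled TDP43-NLS (3 libraries), both in BV2 cells grown in the same serum-supplemented medium. The labels give no vector, expression time, selection or clone, and do not say whether the libraries of a group came from separate cultures, so the p-values measure only how far these samples differ, and that spread may be technical. Libraries held 15062131 to 18005592 counted reads. Reads assigned to Tardbp, the gene of TDP-43, fell by 0.26 on the log2 scale in the libraries labelled TDP43-NLS (adjusted p = 0.000291, edgeR's quasi-likelihood test). These reads do not show the overexpression that the label names, and whether they include reads of the construct is not known. No label names a species for the construct, and the table has no separate row for it, so TDP43-NLS stands throughout for the libraries labelled so, and every direction rests on those labels. GFP replicate 2 stood apart from GFP replicates 1 and 3, the chi-square divided by its degrees of freedom being 6.67 and 6.68, against 1.18 between the other pair. All 14 markers of microglia and macrophages passed the filter, summing to 2960 to 3019 CPM (counts per sequencing depth after TMM scaling, edgeR's cpm) with GFP and 2693 to 2760 CPM with TDP43-NLS. The summed markers of neurons, astrocytes, oligodendrocytes, fibroblasts, endothelium and epithelium reached at most 5.33 CPM in any library, with Rbfox3, Snap25, Syt1, Aqp4, Mog, Dcn, Epcam, Krt8 and Krt18 at 0 reads. Among these the summed neuron markers ran from 0.237 to 0.513 CPM with GFP and from 1.01 to 1.15 CPM with TDP43-NLS, and the endothelium markers from 0.342 to 0.769 and from 2.36 to 2.47 CPM. Tubb3 made up the neuron difference, and Pecam1 and Tek made up the endothelium difference. Tubb3 had 14 reads with GFP and 52 with TDP43-NLS while Syp had 6 and 1, and Pecam1 had 8 and 75 and Tek 1 and 32 while Cdh5 had 18 and 13. Their part in the results was not tested.

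SLC25 proteins sit, with few exceptions, in the inner mitochondrial membrane and exchange metabolites between the matrix and the cytosol. They move adenine nucleotides and phosphate for ATP synthesis, carboxylates and amino acids for the redox shuttles and for biosynthesis, and cofactors, glutathione and iron for the enzymes of the matrix. They are encoded in the nucleus and imported by the TOM complex of the outer membrane, small TIM chaperones and the TIM22 complex. In macrophages and microglia these exchanges link respiration to the cytosolic pools of citrate, aspartate and reducing equivalents that are used in activation.

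The family moved in both directions and by small amounts. Of 39 tested carriers 12 rose under TDP43-NLS and 9 fell (edgeR's quasi-likelihood test, Benjamini-Hochberg adjusted p under 0.05 over all tested genes), and 18 were not called. The called share was 53.8%, and 57.5% of all 13199 tested genes were called, 29.3% higher and 28.2% lower, so the count is near the background. The groups did not overlap in CPM for 26 carriers, 66.7% of them, where the background was 63.2%. The median log2 fold change was 0.01 for the carriers and 0.00 (0.0027) for all tested genes. Of the called carriers, 14 changed by less than 0.5 on the log2 scale. The 7 that passed that size were Slc25a47, Slc25a23, Slc25a29, Slc25a24 and Slc25a33 among the risers, and Slc25a40 and Slc25a53 among those that fell. They make up 17.9% of the tested carriers, where the background was 24.2%. Without GFP replicate 2, 13 carriers rose and 11 fell.

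**Figure D1:**
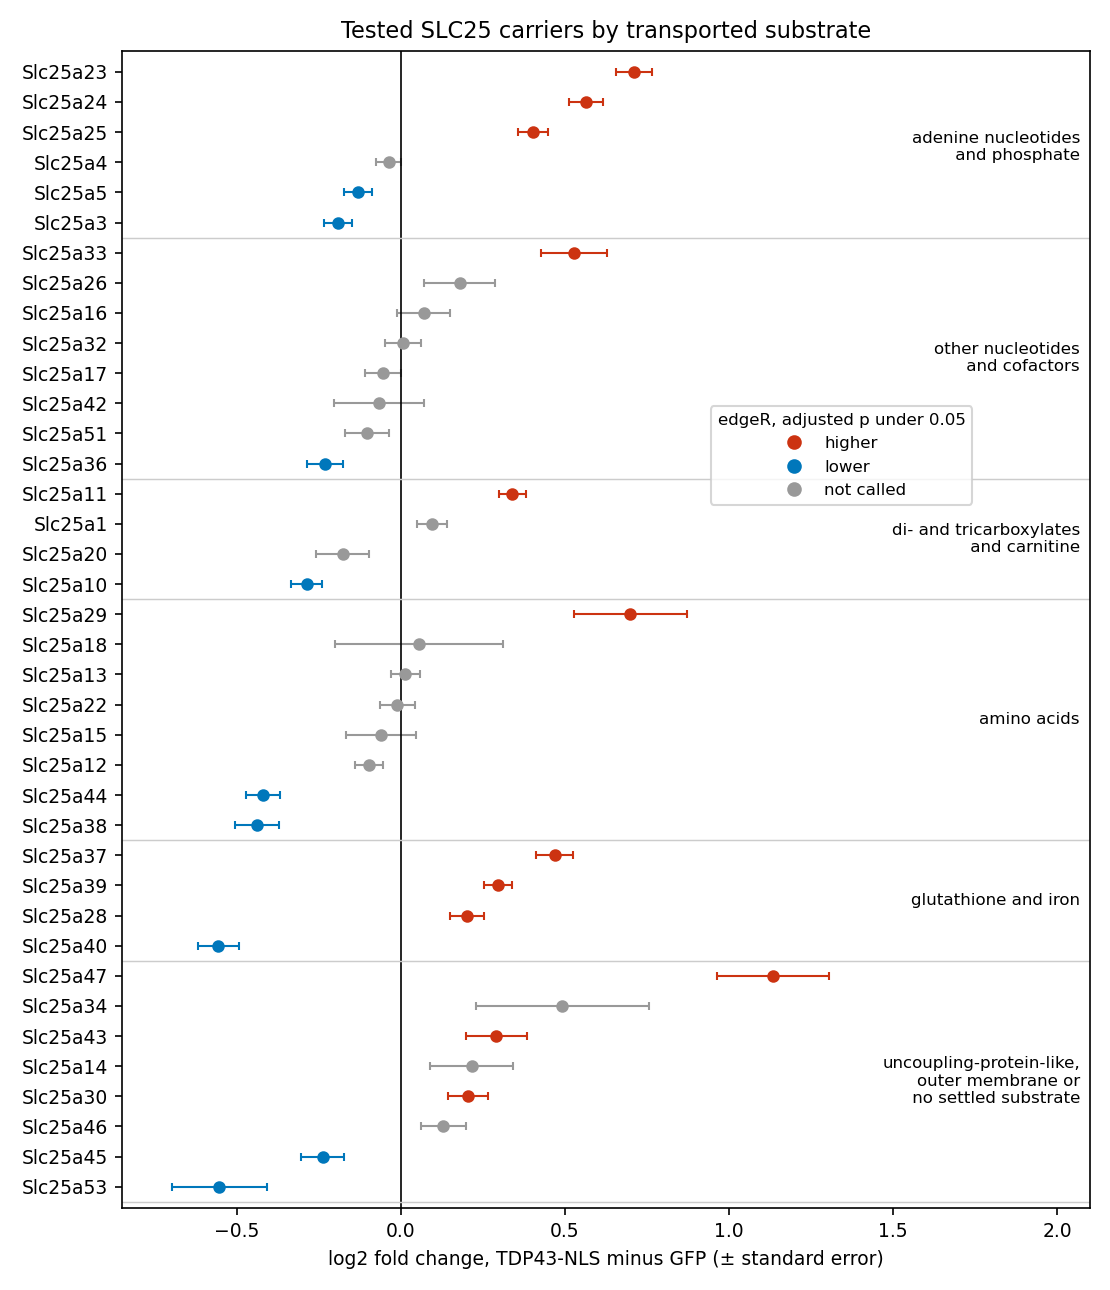
Log2 fold change (TDP43-NLS minus GFP, x axis) of 38 of the 39 tested carriers, grouped by transported substrate, with standard errors as bars and colours for edgeR's call. The 12 carriers that rose and the 9 that fell occur across the groups, and values run from -0.56 for Slc25a40 to 1.13 for Slc25a47.

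Levels spanned a wide range, and a few carriers held most of the family's signal. On the per-length FPKM scale the 5 highest carriers, Slc25a5, Slc25a4, Slc25a3, Slc25a39 and Slc25a11, held 74.4% ± 0.960 of the summed carrier FPKM with GFP and 73.1% ± 0.322 with TDP43-NLS (SD, n = 3 each). The whole family took 0.397%, 0.388% and 0.394% of the counted reads with GFP and 0.382%, 0.378% and 0.381% with TDP43-NLS. All 3 TDP43-NLS libraries were below all 3 GFP libraries, and 63.2% of all single tested genes also did not overlap in CPM. On library totals the median of all tested genes was shifted by -0.034 on the log2 scale. The summed FPKM of Slc25a4, Slc25a5 and Slc25a31 went from 784 ± 31.0 to 710 ± 4.51. That of the carriers outside the 5 highest went from 358 ± 6.51 to 361 ± 4.62 (SD, n = 3 each). FPKM values are scaled to library totals without TMM, and on that scale the median of all genes was shifted by -0.03 on the log2 scale, so small differences in FPKM and the TMM-scaled fold changes need not match.

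**Figure D2:**
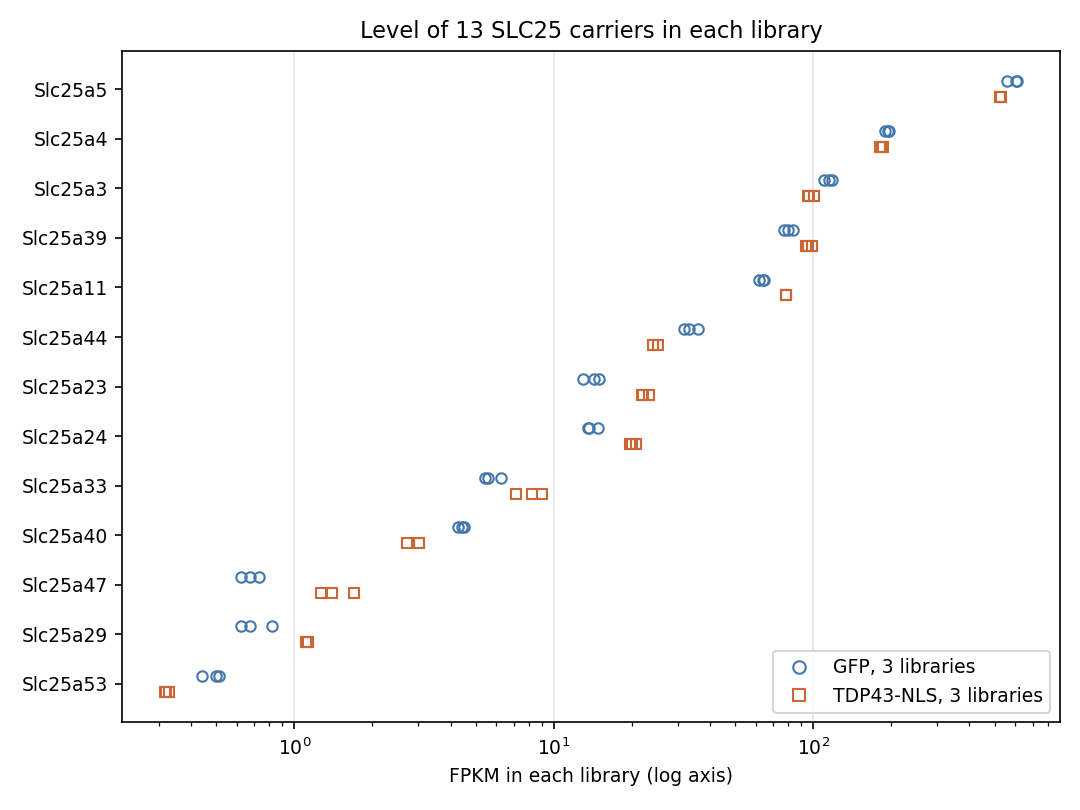
FPKM (log axis) of the 13 carriers described library by library, with circles for GFP and squares for TDP43-NLS. Levels run from under 1 FPKM for Slc25a53 to over 500 FPKM for Slc25a5, and the symbols of the groups separate for each gene shown. All but Slc25a4 were called carriers, for which separation goes with the call. Slc25a4 was not called and overlapped in CPM.

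Among adenine nucleotide and phosphate carriers, 3 of 6 tested members rose, 2 fell and 1 was not called, where 57.5% of all tested genes were called. The carriers that exchange ATP-Mg for phosphate, which adjust the adenine nucleotide content of the matrix in response to calcium, rose: Slc25a23, Slc25a24 and Slc25a25 were all higher. Among the carriers that serve ATP synthesis directly, Slc25a5 (ADP/ATP exchange) and Slc25a3 (phosphate uptake) fell slightly, and the second ADP/ATP exchanger, Slc25a4, was not called.

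Slc25a23 (ENSMUSG00000046329, chromosome 17, 57350711 to 57366863, minus strand, GRCm39) had 14.3, 14.9 and 12.9 FPKM with GFP and 22.1, 23.2 and 21.8 FPKM with TDP43-NLS. Every TDP43-NLS library lay above every GFP library. Its log2 fold change was 0.71 (standard error 0.06, adjusted p = 1.67e-07, edgeR's quasi-likelihood test), from 73.4 ± 5.24 to 120 ± 3.85 CPM (SD, n = 3 each). Slc25a24 (ENSMUSG00000040322, chromosome 3, 109030465 to 109075773, plus strand) had 13.5, 14.8 and 13.6 FPKM against 19.7, 20.01 and 20.8 FPKM. These groups did not overlap either, and the log2 fold change was 0.56 (standard error 0.05, adjusted p = 9.04e-07). Slc25a25 rose by 0.40 (standard error 0.04, adjusted p = 5.16e-06), from 9.58 ± 0.293 to 12.4 ± 0.0158 FPKM (SD, n = 3 each). Slc25a41, a further ATP-Mg carrier that lies 2056 bases from Slc25a23, was not tested, with 2 reads with GFP and 1 in the other. Tested against a log2 fold change of 0.5, Slc25a23 kept its call (adjusted p = 0.00209) and Slc25a24 did not (adjusted p = 0.211).

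The upstream sequences of the 2 ATP-Mg carriers that rose most differ in composition and are shown for that reason, as the 250 bases before the RefSeq start on GRCm38.p6, 5′ to 3′ on the gene's strand. Slc25a23 (chr17:57059864-57060113, minus strand, the first of 2 listed starts) has 52.4% G and C, and Slc25a24 (chr3:109122899-109123148, plus strand) has 72.8%. Capitals mark GC boxes (GGGCGG) and CCAAT boxes (CCAAT), each read on both strands. Slc25a23 holds 1 GC box and 1 CCAAT box, and Slc25a24 holds 2 GC boxes and no CCAAT box.
Slc25a23: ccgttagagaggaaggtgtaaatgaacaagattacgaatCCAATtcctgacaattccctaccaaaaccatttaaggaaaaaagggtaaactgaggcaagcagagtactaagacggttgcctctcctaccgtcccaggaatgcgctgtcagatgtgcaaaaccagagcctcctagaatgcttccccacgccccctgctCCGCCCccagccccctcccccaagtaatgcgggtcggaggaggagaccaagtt
Slc25a24: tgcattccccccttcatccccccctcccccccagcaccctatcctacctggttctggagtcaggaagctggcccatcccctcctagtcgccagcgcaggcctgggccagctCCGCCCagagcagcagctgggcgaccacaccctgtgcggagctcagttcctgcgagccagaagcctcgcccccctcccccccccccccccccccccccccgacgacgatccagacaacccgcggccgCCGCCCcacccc

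Slc25a5 (ENSMUSG00000016319, chromosome X, 36059304 to 36062460, plus strand), the most abundant carrier, had 603, 560 and 611 FPKM with GFP and 524, 526 and 529 FPKM with TDP43-NLS. The GFP values were the more spread, with replicate 2 lowest, and stayed above all TDP43-NLS values. It fell by 0.13 on the log2 scale (standard error 0.04, adjusted p = 0.0171). That call ended when any library except GFP replicate 2 was left out, with adjusted p from 0.0702 to 0.0903, and without GFP replicate 2 the adjusted p was 8.12e-06. Slc25a4 (ENSMUSG00000031633, chromosome 8, 46659834 to 46664321, minus strand) had 195, 189 and 196 FPKM against 183, 181 and 186 FPKM. Its CPM overlapped between the groups, and the log2 fold change was -0.04 (standard error 0.04, adjusted p = 0.424). Slc25a3 (ENSMUSG00000061904, chromosome 10, 90952436 to 90959921, minus strand) had 118, 110 and 115 FPKM against 96.7, 95.0 and 101 FPKM, without overlap. It fell by 0.19 on the log2 scale (standard error 0.04, adjusted p = 0.00193). Slc25a31, the ADP/ATP exchanger of the germline, had a single read. No source used here states how reads matching several genes were treated, and values of Slc25a4, Slc25a5 and other carriers with close copies are uncertain to that extent.

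Of 9 tested carriers of other nucleotides and cofactors, Slc25a33 rose, Slc25a36 fell and 7 did not pass, a called share of 22.2% where it was 57.5% over all tested genes. Both called genes carry pyrimidine nucleotides, which the matrix needs for its own DNA and RNA. Slc25a33 (ENSMUSG00000028982, chromosome 4, 149828493 to 149858734, minus strand) had 5.59, 6.26 and 5.43 FPKM with GFP and 8.97, 7.15 and 8.27 FPKM with TDP43-NLS, with no overlap. The log2 fold change was 0.53 (standard error 0.10, adjusted p = 0.00056). Slc25a36 fell by 0.23 on the log2 scale (standard error 0.06, adjusted p = 0.00289), from 5.46 ± 0.119 to 4.53 ± 0.268 FPKM (SD, n = 3 each). It lies on chromosome 9, where the median log2 fold change of the other tested genes was -0.31. Among the uncalled members, Slc25a26, which brings in S-adenosylmethionine, had a log2 fold change of 0.18 (adjusted p = 0.175). The others described here were Slc25a51 (NAD, -0.10), Slc25a42 (coenzyme A, -0.07), Slc25a17 (a peroxisomal cofactor carrier, -0.05), Slc25a32 (folate and flavin, 0.01) and Slc25a16 (implicated in coenzyme A supply, 0.07). Slc25a26 overlaps Lrig1, on the other strand, by 144 bases. Lrig1 had 0, 1 and 5 reads with GFP and 19, 27 and 15 with TDP43-NLS, and its part in the Slc25a26 value was not tested.

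Among carboxylate and carnitine carriers, the oxoglutarate carrier rose and the dicarboxylate carrier fell. Slc25a11 (ENSMUSG00000014606, chromosome 11, 70535022 to 70538305, minus strand) exchanges malate for oxoglutarate in the malate-aspartate shuttle. It had 64.5, 61.9 and 64.2 FPKM with GFP and 78.5, 78.4 and 78.2 FPKM with TDP43-NLS. The TDP43-NLS libraries were nearly level and all higher, and the log2 fold change was 0.34 (standard error 0.04, adjusted p = 8.94e-06). Slc25a11 overlaps the antisense gene Rnf167 by 245 bases, and Rnf167 fell by 0.48. Slc25a10, which exchanges malate or succinate for phosphate, fell by 0.29 on the log2 scale (standard error 0.05, adjusted p = 0.000182), from 22.4 ± 0.260 to 17.9 ± 0.662 FPKM (SD, n = 3 each). Slc25a1, which exports citrate, had 46.96 ± 0.685 and 48.9 ± 1.93 FPKM (SD, n = 3 each) and a log2 fold change of 0.09 that was not called (adjusted p = 0.092). Its surroundings on chromosome 16 had a median log2 fold change of -0.29 over 97 tested genes within 5 Mb. Slc25a20, which brings in acylcarnitines, stood at -0.18 (adjusted p = 0.0745).

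Amino acid carriers held 2 decreases and 1 increase among 8 tested members, a called share of 37.5% where it was 57.5% over all tested genes. Slc25a44 (ENSMUSG00000050144, chromosome 3, 88317805 to 88332446, minus strand), a carrier of branched-chain amino acids, had 31.6, 35.9 and 33.2 FPKM with GFP and 24.0, 25.2 and 24.1 FPKM with TDP43-NLS. The groups were clearly apart, and it fell by 0.42 on the log2 scale (standard error 0.05, adjusted p = 1.19e-05). Slc25a38, the glycine carrier that feeds haem synthesis, fell by 0.44 on the log2 scale (standard error 0.07, adjusted p = 8.65e-05), from 10.0 ± 0.352 to 7.18 ± 0.408 FPKM (SD, n = 3 each), on chromosome 9 beside genes with a median of -0.23. Slc25a12 and Slc25a13, the aspartate-glutamate carriers of the malate-aspartate shuttle, had log2 fold changes of -0.10 and 0.01, each with a standard error of 0.04 and without a call. Slc25a22 (glutamate, -0.01), Slc25a15 (ornithine, -0.06) and Slc25a18 (glutamate, 0.06) were not called. Slc25a18 had 147 reads in all and a standard error of 0.26, so a change of that size was not detectable in it. It overlaps Atp6v1e1, on the other strand, by 32 bases. Atp6v1e1 had 13465 reads in all, and its part in the Slc25a18 value was not tested.

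Slc25a29 and Slc25a47 are neighbours in opposite orientation on chromosome 12, and both rose from low levels. Slc25a29 (ENSMUSG00000021265, 108791799 to 108801809, minus strand), a carrier of basic amino acids, had 27, 27 and 37 reads with GFP and 44, 53 and 51 with TDP43-NLS. In FPKM this was 0.674, 0.622 and 0.817 against 1.12, 1.13 and 1.11, without overlap, and the log2 fold change was 0.70 (standard error 0.17, adjusted p = 0.00348). With DESeq2 its adjusted p was 0.0559. Slc25a47 (ENSMUSG00000048856, 108801972 to 108822741, plus strand), known as a liver carrier, had 31, 31 and 38 reads against 63, 68 and 89. Every TDP43-NLS library had more reads than every GFP library. The FPKM went from 0.677 ± 0.0549 to 1.45 ± 0.219 (SD, n = 3 each). This is 1.13 on the log2 scale (standard error 0.17, adjusted p = 7.29e-05), and the call was kept against a log2 fold change of 0.5 (adjusted p = 0.00274). The spans of the 2 genes are 162 bases apart. In GENCODE M21, an annotation of the earlier build GRCm38, Slc25a47 has 3 transcripts without a coding sequence, of which the nearest begins after the same gap of 162 bases, and 2 coding transcripts that begin 15.2 kb and 15.3 kb from the Slc25a29 start. The count table sums reads over a gene, so which of these transcripts rose was not measured. The 77 other tested genes within 5 Mb had a median log2 fold change of 0.10.

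The 250 bases before the Slc25a29 start (chr12:108835877-108836126, minus strand, GRCm38.p6) span the gap between the genes. They are shown with the same window before the RefSeq transcript start of Slc25a47 (chr12:108850879-108851128, plus strand), where its first coding transcript begins. The first has 71.2% G and C with 2 GC boxes and 2 CCAAT boxes, and the second 54.4% with no GC box and 1 CCAAT box. Capitals mark these boxes as before.
Slc25a29: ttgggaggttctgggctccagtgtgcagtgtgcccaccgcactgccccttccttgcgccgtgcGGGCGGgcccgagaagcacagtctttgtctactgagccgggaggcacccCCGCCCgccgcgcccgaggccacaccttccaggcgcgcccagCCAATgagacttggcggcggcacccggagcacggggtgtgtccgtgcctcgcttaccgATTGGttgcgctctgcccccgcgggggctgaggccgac
Slc25a47: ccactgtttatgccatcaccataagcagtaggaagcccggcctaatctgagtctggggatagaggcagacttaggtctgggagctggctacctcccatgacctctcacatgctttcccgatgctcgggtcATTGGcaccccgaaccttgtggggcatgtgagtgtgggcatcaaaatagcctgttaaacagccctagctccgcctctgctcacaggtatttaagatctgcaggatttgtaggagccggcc

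Of the 4 carriers of glutathione and iron, all tested, 3 rose and 1 fell, in a comparison where 57.5% of all tested genes were called. Both mitoferrins, which bring iron into the matrix for haem and iron-sulfur clusters, rose. Slc25a37 (mitoferrin 1) rose by 0.47 (standard error 0.06, adjusted p = 1.13e-05), from 12.1 ± 0.834 to 16.3 ± 0.730 FPKM (SD, n = 3 each), and Slc25a28 (mitoferrin 2) by 0.20 (standard error 0.05, adjusted p = 0.0051), from 12.3 ± 0.504 to 13.8 ± 0.350 FPKM. The carriers for glutathione, the main thiol antioxidant of the matrix, went apart. Slc25a39 (ENSMUSG00000018677, chromosome 11, 102293811 to 102298772, minus strand) had 80.0, 83.3 and 77.2 FPKM with GFP and 99.0, 93.8 and 95.2 FPKM with TDP43-NLS. It was higher in every TDP43-NLS library, and the log2 fold change was 0.30 (standard error 0.04, adjusted p = 5.52e-05). Slc25a40 (ENSMUSG00000054099, chromosome 5, 8472850 to 8504797, plus strand) had 4.502, 4.29 and 4.44 FPKM against 2.71, 3.02 and 3.01 FPKM. It fell by 0.56 on the log2 scale (standard error 0.06, adjusted p = 5.30e-06), and the groups did not overlap. The 36 other tested genes within 5 Mb of Slc25a40 had a median log2 fold change of -0.60, as low as the carrier itself, and their part in its decrease was not tested.

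The 250 bases before the Slc25a40 start (chr5:8422588-8422837, plus strand, GRCm38.p6), the carrier that fell most, have 78.0% G and C with 2 GC boxes, in capitals, and no CCAAT box.
Slc25a40: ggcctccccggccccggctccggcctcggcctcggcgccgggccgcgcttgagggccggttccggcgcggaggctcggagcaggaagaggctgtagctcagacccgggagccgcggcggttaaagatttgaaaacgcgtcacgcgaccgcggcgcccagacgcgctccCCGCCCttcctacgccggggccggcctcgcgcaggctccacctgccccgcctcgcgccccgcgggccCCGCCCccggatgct

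RefSeq windows from 250 bases before to 50 after a start were found by symbol for 34 of the 44 carriers, 32 of them tested. A GC box was present in 28 of these 32 (87.5%) and in 35.9% of all 27025 genes with such a window, taking the first listed window of a gene. The median G and C content was 60.7% in the tested carriers and 52.7% in all windows. The CCAAT box was in 16 of 32 carriers and in 37.9% of all windows. The TATA box (TATAAA) was in 1 of 32 and in 14.2% of all windows, the E-box (CACGTG) in 5 of 32 and 7.24%, and the amino acid response element searched as TGATGNAA in 0 of 32 and 4.06%. These are matches of letters on both strands, and no motif searched contains another. The comparison set was not limited to tested genes, as the 32 carriers were, so the sets are unlike. The shares are given as a description, and no gap between them is shown to be particular to the carriers.

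The last group holds carriers related to the uncoupling proteins, a protein of the outer membrane and carriers with no settled substrate. Of 8 tested members 3 rose and 2 fell, a called share of 62.5% where it was 57.5% over all tested genes. Besides Slc25a47, Slc25a30, a relative of the uncoupling proteins, rose by 0.20 (adjusted p = 0.0106) and Slc25a43 by 0.29 (adjusted p = 0.0157). The call of Slc25a43 ended without GFP replicate 3 (adjusted p = 0.0552), without TDP43-NLS replicate 2 (adjusted p = 0.0654) and with DESeq2 (adjusted p = 0.136). Slc25a45 fell by 0.24 on the log2 scale (adjusted p = 0.0069), and its call ended without TDP43-NLS replicate 3 (adjusted p = 0.0518). Slc25a53 (ENSMUSG00000044348, chromosome X, 135881865 to 135939051, minus strand) had 54, 66 and 71 reads with GFP and 38, 47 and 45 with TDP43-NLS. In FPKM this was 0.441, 0.497 and 0.513 against 0.317, 0.328 and 0.321, without overlap. It fell by 0.55 on the log2 scale (standard error 0.15, adjusted p = 0.00535), and its adjusted p with DESeq2 was 0.0776. Slc25a46, which acts in fusion and fission at the outer membrane, had a log2 fold change of 0.13 (adjusted p = 0.127), Slc25a14 0.22 (adjusted p = 0.161) and Slc25a34 0.49 (adjusted p = 0.128, 106 reads in all).

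Related carriers that share a substrate were set against each other as ratios of FPKM, which are per length and can be compared between genes. The ratio of Slc25a39 to Slc25a40 was 17.8, 19.4 and 17.4 with GFP and 36.6, 31.0 and 31.6 with TDP43-NLS. The ratio of the pyrimidine carriers Slc25a33 and Slc25a36 was 1.03, 1.12 and 1.01 against 2.098, 1.49 and 1.84. In both pairs the members were called in opposite directions and each was without overlap, so the ratios of the groups could not overlap either. The ratio of the mitoferrins Slc25a37 and Slc25a28 went from 0.988 ± 0.0911 to 1.19 ± 0.0528, that of the ADP/ATP exchangers Slc25a4 and Slc25a5 from 0.327 ± 0.00939 to 0.349 ± 0.00346, and that of the ATP-Mg carriers Slc25a24 and Slc25a25 from 1.46 ± 0.0904 to 1.63 ± 0.0460 (SD, n = 3 each), all without overlap. The aspartate-glutamate carriers Slc25a12 and Slc25a13 (0.827 ± 0.0495 and 0.765 ± 0.0149) and the glutamate carriers Slc25a18 and Slc25a22 (0.0542 ± 0.00948 and 0.0567 ± 0.0200) overlapped. An exact permutation test over the libraries, two-sided, gave p = 0.1 for each of the 5 pairs without overlap, and adjusted p = 0.14 over the 7 pairs. As 0.1 is the smallest p that 3 against 3 libraries allow, no pair could have passed 0.05, and none did. Ratios of other gene pairs were not computed, so the 5 are not shown to be particular to these carriers. Of single tested genes, 63.2% did not overlap in CPM. For the other pairs the exact p was 0.2 and 0.9.

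**Figure D3:**
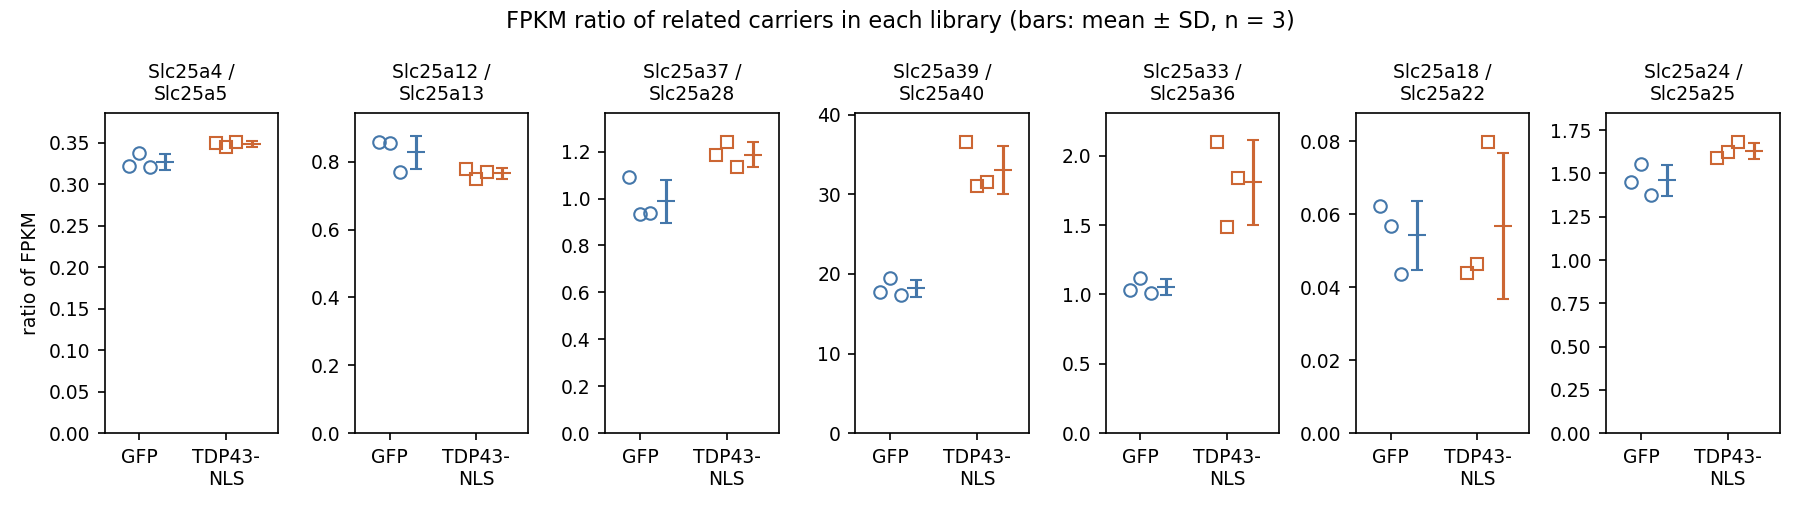
Ratio of FPKM (y axis, from 0) of 7 pairs of related carriers in each library, with the mean ± SD beside the points. Slc25a39 over Slc25a40 and Slc25a33 over Slc25a36 show the widest gaps between the GFP and TDP43-NLS libraries.

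Fold changes of carriers went partly with those of the genes around them. The median log2 fold change of other tested genes within 5 Mb ran from -0.60 around Slc25a40 to 0.28 around Slc25a23, over 20 to 200 genes. Of the 21 called carriers 15 had the sign of their surroundings, and Pearson's r over the 39 carriers was 0.49, a description over genes that share the same libraries and in part the same windows. Neither value was computed over all tested genes, so neither is shown to be particular to the carriers. Of the called carriers, 3 were within 0.1 of the median around them. Both carriers called on chromosome 9, Slc25a36 and Slc25a38, fell among genes of which 58.7% fell. Slc25a25 and Slc25a28 rose against surroundings at -0.10 and -0.13, and Slc25a5 and Slc25a45 fell against 0.11 and 0.03. The part of the surroundings in these results was not tested.

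**Figure D4:**
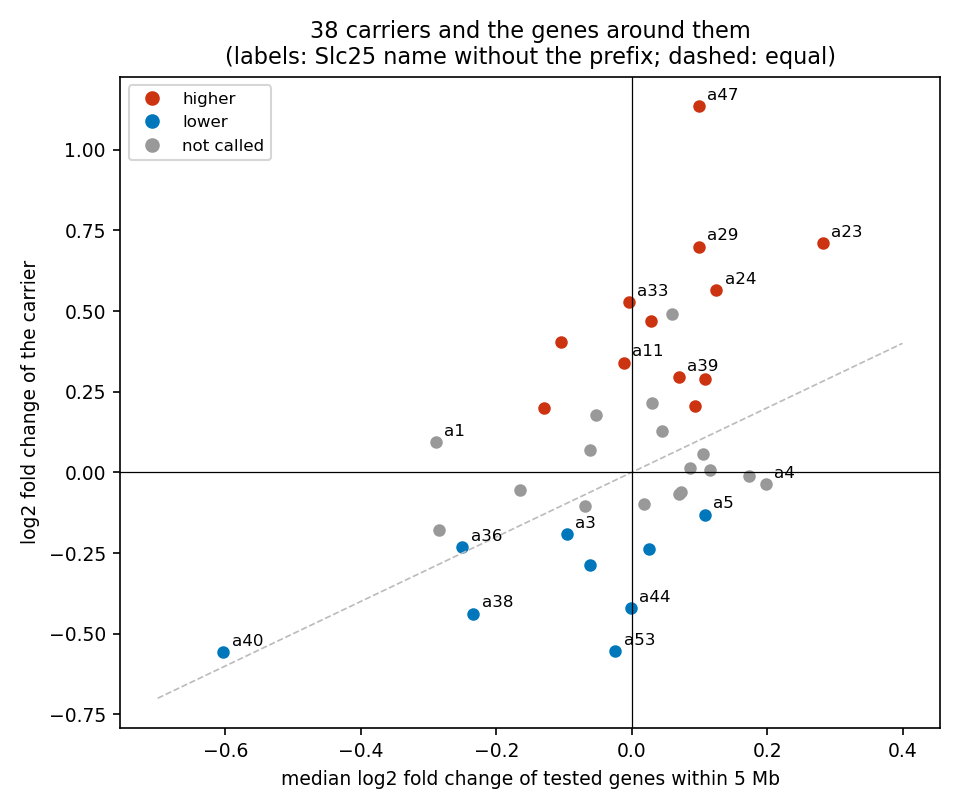
Log2 fold change of 38 of the 39 tested carriers (y axis) against the median of the other tested genes within 5 Mb (x axis), with the dashed line where both are equal. Slc25a40 lies close to the line at -0.56 against -0.60, and Slc25a47, Slc25a29 and Slc25a23 lie well above it.

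Other members of the family carry other names and were not called. Ucp2, an uncoupling protein of macrophages, had a log2 fold change of 0.06, and Mtch1 and Mtch2, relatives in the outer membrane, had 0.06 and 0.00, each with a standard error of 0.04. Of these 3 tested genes 0 were called by edgeR, 0 had an unadjusted p under 0.05, and DESeq2 and limma called 0. Ucp1 had 3 reads in all, and no row was named Ucp3.

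Genes of the machinery that imports the carriers were lower where called. Of 13 tested members 9 fell, 4 were not called and 0 rose in edgeR, and 0 rose at an unadjusted p under 0.05, in DESeq2 or in limma. The called share was 69.2%, where 57.5% of all tested genes were called and 28.2% were lower. All 13 log2 fold changes were below 0, with a median of -0.34 where the median of all tested genes was 0.00 (0.0027). Timm29, a subunit of the TIM22 complex, fell by 1.27 on the log2 scale (standard error 0.06, adjusted p = 1.87e-09), from 103 to 42.8 CPM. The tested genes within 5 Mb of Timm29, on chromosome 9, had a median of -0.66, and their part was not tested. Tomm70a, the receptor that receives carriers at the outer membrane, fell by 0.43 (adjusted p = 1.17e-06), Agk, the lipid kinase that is also a TIM22 subunit, by 0.61 (adjusted p = 2.16e-06) and Tomm22 by 0.37 (adjusted p = 5.61e-06). Around Tomm70a, Agk and Tomm22 the medians were -0.03, 0.02 and -0.15. Timm22, the channel itself, fell by 0.60 (adjusted p = 5.88e-06, chosen for naming after its value was seen). Against a log2 fold change of 0.5, 1 member, Timm29, kept its call. No row was named Timm18.

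**Figure D5:**
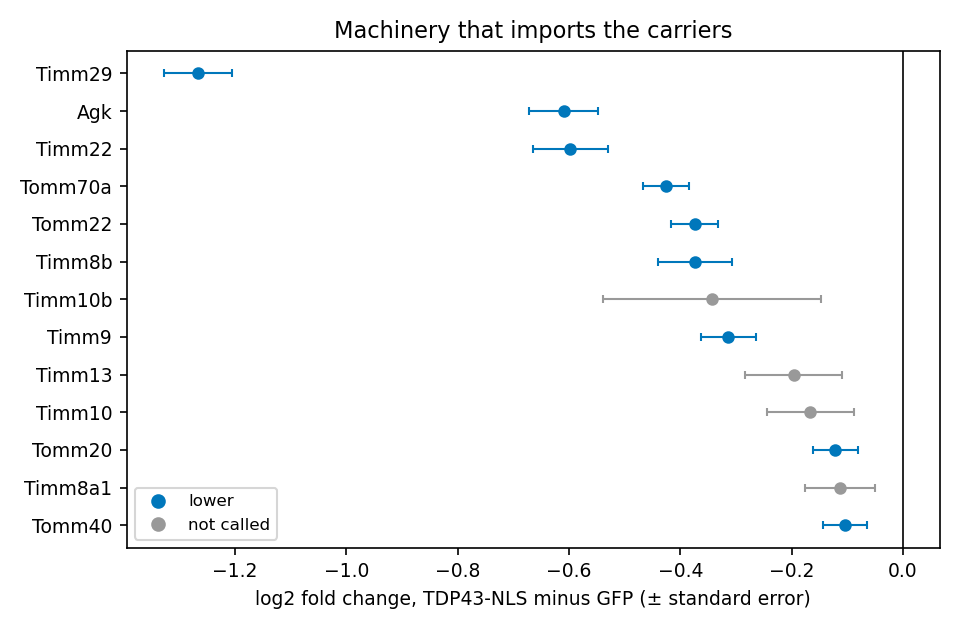
Log2 fold change (x axis, with standard errors) of the 13 tested genes of the import machinery of the carriers. All lie left of 0, from -0.10 for Tomm40 to -1.27 for Timm29, and 9 of them were called.

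Other transporters of the mitochondrial membranes moved both ways, with 4 higher, 6 lower and 11 not called of 21 tested. The called share was 47.6%, where 57.5% of all tested genes were called. Mcub, a subunit that restrains the calcium uniporter, rose by 0.88 (standard error 0.07, adjusted p = 1.14e-07). Tspo, the outer membrane protein used as an imaging marker of activated microglia, rose by 0.55 (adjusted p = 8.56e-06). Sfxn1, the serine carrier, fell by 0.51 (standard error 0.04, adjusted p = 4.17e-07) and Letm1, a cation exchanger, by 0.34 (adjusted p = 1.61e-05). The pyruvate carrier genes Mpc1 and Mpc2 had log2 fold changes of -0.19 and -0.09 without a call.

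Enzymes that make or use the carried substrates were called in 29 of 38 tested genes or 76.3%, with 15 higher and 14 lower, where 57.5% of all tested genes were called. The difference between these shares was not tested. Aldh18a1, the first enzyme of proline synthesis from glutamate, rose by 0.86 (standard error 0.04, adjusted p = 1.50e-09). Alas1, which starts haem synthesis from glycine, rose by 0.77 (adjusted p = 1.39e-08) and the NADP-dependent malic enzyme Me1 by 0.56 (adjusted p = 2.23e-07). Both lie on chromosome 9, among genes with medians of -0.31 and -0.35. Gsr, which reduces oxidised glutathione, rose by 0.66 (adjusted p = 2.13e-08). In the malate-aspartate shuttle, in genes chosen for naming after their values were seen, the mitochondrial enzymes Got2 and Mdh2 rose by 0.32 and 0.17, the cytosolic Got1 fell by 0.14 and Mdh1 stood at 0.01 without a call (adjusted p = 0.936).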

How the data were processed

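RNA of 6 BV2 libraries, 3 labelled GFP and 3 labelled TDP43-NLS, was made from poly(A)-selected RNA with a kit for which no strand-marking step is described, per the labels' protocols. The deposited counts are whole reads per gene, and the deposited FPKM values are those counts scaled by the authors to gene length and library total (recomputed values differed by a relative 7.24e-14 at most). The build is GRCm39 and the tools named are Bowtie2 2.2.3, HTSeq 0.6.0 and HISAT2 2.1.0, per the submitters' processing notes, which give no roles. No source used here states whether strand entered the counting, so reads of overlapping antisense genes cannot be told apart.

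Counts were tested with edgeR 4.0.16 (R 4.3.3; filterByExpr, TMM, quasi-likelihood, two-sided, Benjamini-Hochberg over 13199 genes). A standard error is the log2 fold change divided by the square root of F. Bulk counts cannot tell fewer cells of a type from less RNA per cell. FPKM was used for levels and ratios. DESeq2 1.42.0, limma 3.58.1 on log2(FPKM + 1) with a mean of at least 0.5, other scalings, no filter, a replicate block and left-out libraries were alternatives. On data simulated for this comparison with 13199 genes, the share of changed genes called was 50% at 1.25-fold, 80% at 1.5-fold, 94% at 2-fold and 96% at 4-fold, with 5 false calls. The simulation changed far fewer genes than were called in the data, so these shares may not hold for the data.

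The carriers, lists and tests were chosen with earlier results of these data known. Values in each library are given for called carriers with a log2 fold change of at least 0.5 either way, for the 5 highest by FPKM and for the most significant of each substrate group. From each further list up to 4 called genes are named. The RefSeq and GENCODE tables used are of the earlier build, and no coordinates were carried between builds. The values of 1 tested carrier are not reported here, though it enters the counts.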

Additional observations from a re-analysis of the deposited data

How the results depend on the processing

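The 21 calls among the carriers were all kept with median-of-ratios scaling, library totals only, no low-count filter and the replicate block, and no carrier changed direction with its call under any alternative. DESeq2 kept 18 and lost Slc25a29, Slc25a43 and Slc25a53. With the replicate block 12 carriers rose and 9 fell, as without it. The replicate numbers did not pair the libraries: deviations of same-numbered libraries correlated at -0.02, -0.01 and 0.00 (0.0019), and not every library correlated best with its own number. Tested against a log2 fold change of 0.5, 2 carriers were called higher (Slc25a23 and Slc25a47, 5.13% of the tested carriers where the background was 14.9%) and 0 lower (0 also at an unadjusted p under 0.05), with 1221 and 744 of all genes, 1 gene of the import machinery, 1 of the other transporters and 5 of the enzymes. This test asks for a larger change by construction. The median of the carriers, 0.01, was -0.023 with library totals only and -0.021 with limma on log2(FPKM + 1), where the median of all genes was also below 0. Leaving out 1 library at a time, it ran from 0.00075 to 0.039. Over the same settings 11 to 13 carriers were called higher and 7 to 11 lower, 0 to 1 of the other family members were called, and the log2 difference of the Slc25a18 to Slc25a22 ratio ran from -0.249 to 0.183. The family's share of reads differed by -0.013 percentage points and its share of summed FPKM by -0.030. The summed FPKM itself differed by -57.6 for the family and by -74.6 for Slc25a4, Slc25a5 and Slc25a31 together. For the carriers outside the 5 highest it differed by 2.97, so the lower sum was not spread over the family. The cause was not tested. Without the carriers on chromosomes 9, 12 and 16, whose medians were -0.31, 0.17 and -0.21, 10 rose and 7 fell. Low counts limit Slc25a18, Slc25a29, Slc25a34, Slc25a42, Slc25a47 and Slc25a53, each below 400 reads in all.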
